A study of Mus musculus with 67 samples.

Results

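The interferon regulatory factors are transcription factors that share a DNA-binding domain and recognise response elements built around GAAA. Irf1 and Irf2 bind largely the same sites, Irf1 mostly as an activator and Irf2 mostly as a repressor, whereas Irf3, Irf7 and Irf5 are switched on downstream of sensors of foreign nucleic acid and microbial products and induce interferon genes. Irf9 is the DNA-binding part of ISGF3, the complex that carries the type I interferon signal into the nucleus, and Irf4 and Irf8 act in lymphoid and myeloid cells, mostly together with Ets or AP-1 factors. The family was read here as the 8 genes Irf1, Irf2, Irf3, Irf4, Irf5, Irf7, Irf8 and Irf9, found by gene symbol, which are 8 of 24471 genes in the second experiment and 8 of 24421 gene symbols in the pilot.

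The study sequenced RNA of conventional T (Tconv) cells and regulatory T cells (Tregs) sorted from mouse brain, to ask what obesity and a high-fat, high-sugar (HFHS) diet do to them. A pilot held 8 libraries, all from hypothalamus, with 1 library per group. In it, Tconv cells and Tregs of female Foxp3-GFP Balb/c mice had 16 weeks of HFHS or regular diet (9 mice pooled), and CD4+ and CD25hi cells came from female ob/ob or wild-type Bl6 mice (7 mice pooled). The second experiment held 59 libraries, each from pooled mice. The study text gives 5 mice per sample for Tconv cells, and pool labels such as 77_80 and 26_31, if read as ranges of animal numbers, would not span 5. Its 16 groups crossed hypothalamus or rest of the brain with Tconv cells (CD44hi CD62Llow, Foxp3-GFP negative) or Tregs, with Balb/c or C57Bl/6J mice and with HFHS or standard diet, begun at 6 weeks of age. Groups held 4 pools, except rest-brain Tconv cells of HFHS-fed C57Bl/6J mice and of Balb/c mice on either diet (3 pools) and rest-brain Tregs of Balb/c mice on the standard diet (2 pools). In the second experiment all Balb/c mice were female and all C57Bl/6J mice male, so strain and sex could not be told apart in its strain comparisons.

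The 59 libraries held 1724149 to 38482277 counts and 3562 to 16787 detected genes, with the fewest genes in hypothalamic Tregs (3562 to 11445). Foxp3, the Treg marker, was read at 0 to 13.8 counts scaled by library total (CPM) in hypothalamic Tconv cells and 0.0355 to 12.6 CPM in rest-brain Tconv cells. It stood at 241 to 767 CPM in rest-brain Tregs, above every Tconv pool, and at 0.0977 to 862 CPM in hypothalamic Tregs, where the ranges overlapped. Cd3e was detected in all 59 libraries, at 37.9 to 2791 CPM in hypothalamic Tregs and 982 to 3054 CPM elsewhere. 6 libraries stood apart by low Foxp3 for a Treg library or by high microglial markers, and 5 of them were hypothalamic Tregs. Among C57Bl/6J standard-diet Tregs, pool 11_15 carried Foxp3 at 1.19 CPM, a T-cell marker sum of 199 CPM, endothelial markers at 12770.0 CPM and macrophage markers at 2893 CPM. Pool 43_47 of that group held 1724149 counts, Foxp3 at 3.48 CPM, and dendritic and B-cell markers at 2531 and 832 CPM, and pool 67_71 had microglial markers at 1933 CPM. Microglial markers summed to 31480.0 CPM in Balb/c standard-diet pool 32_36 (Foxp3 0.0977 CPM) and 729 CPM in C57Bl/6J HFHS pool 06_10 (Foxp3 0.43 CPM). The sixth was rest-brain Tconv pool 42_46 of Balb/c mice on the standard diet, with microglial markers at 939 CPM. All 6 were kept. The tested comparisons that hold them were also run without them, but the levels, their order and the likeness values below include them.

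The members were first ranked against each other in TPM, which corrects for transcript length. Hypothalamic Tconv cells had median TPM of 209 for Irf1, 166 for Irf7, 95.6 for Irf2, 91.1 for Irf9, 55.8 for Irf3, 9.59 for Irf5, 8.61 for Irf8 and 0.0835 for Irf4 (n = 16). Rest-brain Tconv cells had median TPM of 155 for Irf1, 150.0 for Irf7, 88.9 for Irf2, 49.2 for Irf9, 33.4 for Irf3, 4.89 for Irf8, 2.60 for Irf5 and 2.23 for Irf4 (n = 13). Irf1 led in both Tconv classes, Irf7 and Irf2 followed, and Irf4 was lowest. Hypothalamic Tregs had median TPM of 181 for Irf1, 80.8 for Irf7, 64.7 for Irf2, 60.8 for Irf9, 19.0 for Irf3, 13.1 for Irf5, 0.0110 for Irf8 and 0 for Irf4 (n = 16). Rest-brain Tregs had median TPM of 242 for Irf1, 141 for Irf7, 116 for Irf2, 115 for Irf9, 70.7 for Irf3, 35.3 for Irf5, 10.2 for Irf8 and 0.662 for Irf4 (n = 14). The same 5 genes led in the same order in all 4 classes, namely Irf1, Irf7, Irf2, Irf9 and Irf3. Ranges of neighbours in this order overlapped in every class, so the order holds for medians and not for each pool. More than 10 counts were reached by 7 to 8 of the 8 members in every Tconv pool, by 5 to 8 in rest-brain Tregs and by 1 to 8 in hypothalamic Tregs, where 6 of 16 pools had fewer than 5.

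**Figure D1:**
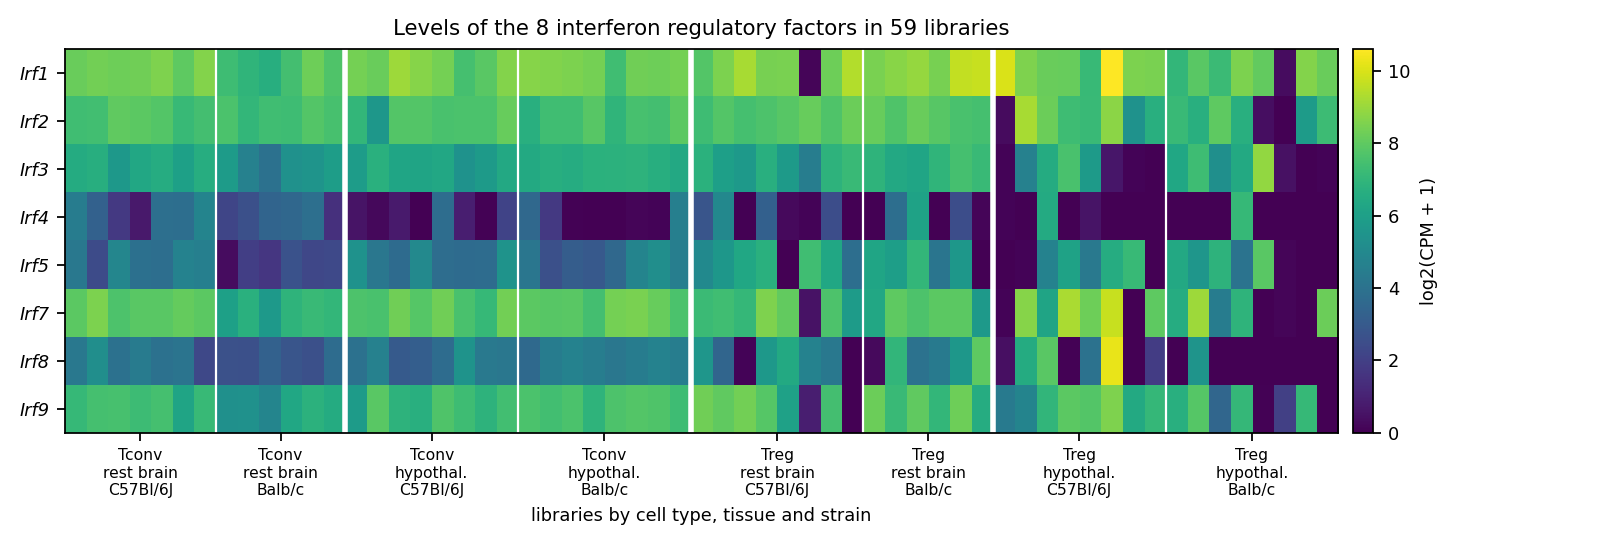
Levels of the 8 members (vertical axis) in the 59 libraries of the second experiment (columns, grouped by cell type, tissue and strain). Colour shows log2(CPM + 1) from 0 (dark) to above 10 (yellow), white lines part the groups, and the hypothalamic Treg columns hold the widest spread.

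Irf1 and Irf2 share binding sites and are often read as a pair of activator and repressor. Their levels, and those of the other members, are given as mean ± standard deviation over pools, in CPM. Irf1 in hypothalamic Tconv cells averaged 393 ± 105 CPM (C57Bl/6J, HFHS), 287 ± 98.6 (C57Bl/6J, standard diet), 376 ± 32.3 (Balb/c, HFHS) and 282 ± 81.4 (Balb/c, standard diet; n = 4 each). Irf1 in rest-brain Tconv cells averaged 312 ± 19.9 CPM (C57Bl/6J, HFHS), 339 ± 66.5 (C57Bl/6J, standard diet), 127 ± 29 (Balb/c, HFHS) and 229.6 ± 71 (Balb/c, standard diet; n = 3, 4, 3 and 3). Among Tconv groups the lowest Irf1 means were those of Balb/c rest-brain cells, and the 3 HFHS pools there (99.4 to 157 CPM) lay below every other Tconv pool, the next being 161 CPM in hypothalamic Balb/c standard-diet pool 06_10. Irf1 in hypothalamic Tregs averaged 494 ± 359 CPM (C57Bl/6J, HFHS), 608 ± 649.6 (C57Bl/6J, standard diet), 222 ± 108 (Balb/c, HFHS) and 239.7 ± 169.5 (Balb/c, standard diet; n = 4 each). Irf1 in rest-brain Tregs averaged 380.5 ± 156 CPM (C57Bl/6J, HFHS), 332 ± 273 (C57Bl/6J, standard diet), 406 ± 67.1 (Balb/c, HFHS) and 828 ± 32 (Balb/c, standard diet; n = 4, 4, 4 and 2). Irf1 was detected in all Tconv pools. In hypothalamic Tregs the wide spread of the C57Bl/6J groups came from pools 43_47 (1570.0 CPM) and 06_10 (1029 CPM), both among the libraries that stood apart. In Balb/c standard-diet hypothalamic Tregs the lowest pool read 0.293 CPM, beside a group median of 279.9 CPM. Irf2 in hypothalamic Tconv cells averaged 152 ± 81.7 CPM (C57Bl/6J, HFHS), 215 ± 43.4 (C57Bl/6J, standard diet), 165 ± 50.6 (Balb/c, HFHS) and 181 ± 51.2 (Balb/c, standard diet; n = 4 each). Irf2 in rest-brain Tconv cells averaged 198 ± 54.3 CPM (C57Bl/6J, HFHS), 196 ± 47.3 (C57Bl/6J, standard diet), 162 ± 30.8 (Balb/c, HFHS) and 188 ± 29.8 (Balb/c, standard diet; n = 3, 4, 3 and 3). Mean Irf2 of the Tconv groups ran from 152.5 to 215.4 CPM and from 60.1 to 114 TPM, with pool 67_71 of C57Bl/6J standard-diet mice highest in hypothalamus at 280.4 CPM. Irf2 in hypothalamic Tregs averaged 265 ± 255 CPM (C57Bl/6J, HFHS), 182 ± 175 (C57Bl/6J, standard diet), 151 ± 71.6 (Balb/c, HFHS) and 52.5 ± 72.7 (Balb/c, standard diet; n = 4 each). Irf2 in rest-brain Tregs averaged 188 ± 24.6 CPM (C57Bl/6J, HFHS), 254 ± 43.6 (C57Bl/6J, standard diet), 254 ± 40.8 (Balb/c, HFHS) and 184 ± 9.20 (Balb/c, standard diet; n = 4, 4, 4 and 2). In Tregs Irf2 ran from 0 to 602 CPM in hypothalamus and from 159 to 299 CPM in the rest of the brain, so the ranges of the tissues overlapped.

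Irf3, Irf7 and Irf5 lie downstream of sensors and their kinases, and of these Irf7 is itself induced by interferon. Irf3 in hypothalamic Tconv cells averaged 78.2 ± 20.3 CPM (C57Bl/6J, HFHS), 65.4 ± 20.9 (C57Bl/6J, standard diet), 97.7 ± 9.31 (Balb/c, HFHS) and 103 ± 13.8 (Balb/c, standard diet; n = 4 each). Irf3 in rest-brain Tconv cells averaged 80.6 ± 26.9 CPM (C57Bl/6J, HFHS), 84.0 ± 14.9 (C57Bl/6J, standard diet), 31.9 ± 21.7 (Balb/c, HFHS) and 47.9 ± 9.91 (Balb/c, standard diet; n = 3, 4, 3 and 3). Among Tconv groups Irf3 was lowest in Balb/c HFHS cells of the rest of the brain. Irf3 in hypothalamic Tregs averaged 76.6 ± 84.9 CPM (C57Bl/6J, HFHS), 13.5 ± 26.6 (C57Bl/6J, standard diet), 90.2 ± 49.7 (Balb/c, HFHS) and 119 ± 238 (Balb/c, standard diet; n = 4 each). Irf3 in rest-brain Tregs averaged 81.7 ± 28.3 CPM (C57Bl/6J, HFHS), 84.0 ± 56.1 (C57Bl/6J, standard diet), 100.3 ± 24.7 (Balb/c, HFHS) and 162 ± 20.2 (Balb/c, standard diet; n = 4, 4, 4 and 2). The mean of Balb/c standard-diet hypothalamic Tregs rested on pool 06_10 alone, at 477 CPM, the next pool being at 0.391 CPM. Irf7 in hypothalamic Tconv cells averaged 231 ± 57.3 CPM (C57Bl/6J, HFHS), 242 ± 94.3 (C57Bl/6J, standard diet), 222 ± 32.2 (Balb/c, HFHS) and 296 ± 73.8 (Balb/c, standard diet; n = 4 each). Irf7 in rest-brain Tconv cells averaged 271 ± 87.3 CPM (C57Bl/6J, HFHS), 249 ± 18.9 (C57Bl/6J, standard diet), 74.7 ± 28.0 (Balb/c, HFHS) and 132 ± 13.1 (Balb/c, standard diet; n = 3, 4, 3 and 3). Among Tconv groups, rest-brain cells of Balb/c mice again held the lowest means. Irf7 in hypothalamic Tregs averaged 277 ± 292 CPM (C57Bl/6J, HFHS), 354 ± 357 (C57Bl/6J, standard diet), 192 ± 232 (Balb/c, HFHS) and 74.4 ± 149 (Balb/c, standard diet; n = 4 each). Irf7 in rest-brain Tregs averaged 207 ± 116 CPM (C57Bl/6J, HFHS), 132 ± 125 (C57Bl/6J, standard diet), 195 ± 79.0 (Balb/c, HFHS) and 149.7 ± 138 (Balb/c, standard diet; n = 4, 4, 4 and 2). Irf7 in Balb/c standard-diet hypothalamic Tregs came from pool 42_46 (298 CPM), the next being at 0.0977 CPM, and rest-brain C57Bl/6J HFHS pool 77_80 was highest in its group at 379.7 CPM. Irf5 in hypothalamic Tconv cells averaged 25.6 ± 13.4 CPM (C57Bl/6J, HFHS), 19.9 ± 14.9 (C57Bl/6J, standard diet), 9.12 ± 5.29 (Balb/c, HFHS) and 24.1 ± 10.7 (Balb/c, standard diet; n = 4 each). Irf5 in rest-brain Tconv cells averaged 16.8 ± 12 CPM (C57Bl/6J, HFHS), 18.8 ± 6.11 (C57Bl/6J, standard diet), 1.79 ± 1.36 (Balb/c, HFHS) and 4.43 ± 0.897 (Balb/c, standard diet; n = 3, 4, 3 and 3). Pool 67_71 of C57Bl/6J standard-diet mice, at 42.2 CPM, was the highest hypothalamic Tconv pool for Irf5. Irf5 in hypothalamic Tregs averaged 23.2 ± 32 CPM (C57Bl/6J, HFHS), 63.8 ± 66.2 (C57Bl/6J, standard diet), 65.5 ± 43.6 (Balb/c, HFHS) and 59.3 ± 118 (Balb/c, standard diet; n = 4 each). Irf5 in rest-brain Tregs averaged 66.3 ± 32.5 CPM (C57Bl/6J, HFHS), 64.4 ± 75.4 (C57Bl/6J, standard diet), 70.5 ± 46.5 (Balb/c, HFHS) and 23.9 ± 33.7 (Balb/c, standard diet; n = 4, 4, 4 and 2). Irf5 was at 0 in 4 of 16 hypothalamic and 2 of 14 rest-brain Treg pools, while pool 06_10 of Balb/c standard-diet mice reached 237 CPM.

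Irf9 gives ISGF3 its DNA contact, and its own gene is interferon-responsive. Irf9 in hypothalamic Tconv cells averaged 128 ± 76.5 CPM (C57Bl/6J, HFHS), 163 ± 37.6 (C57Bl/6J, standard diet), 168 ± 35.8 (Balb/c, HFHS) and 197 ± 27.0 (Balb/c, standard diet; n = 4 each). Irf9 in rest-brain Tconv cells averaged 167 ± 25.2 CPM (C57Bl/6J, HFHS), 136 ± 44.3 (C57Bl/6J, standard diet), 35.7 ± 7.42 (Balb/c, HFHS) and 93.5 ± 16.2 (Balb/c, standard diet; n = 3, 4, 3 and 3). Balb/c HFHS pools of the rest of the brain were lowest among Tconv cells for Irf9, as they were for Irf1 and Irf7. Irf9 in hypothalamic Tregs averaged 105 ± 106 CPM (C57Bl/6J, HFHS), 205 ± 130.0 (C57Bl/6J, standard diet), 119 ± 89.2 (Balb/c, HFHS) and 35.5 ± 69.1 (Balb/c, standard diet; n = 4 each). Irf9 in rest-brain Tregs averaged 283 ± 47.8 CPM (C57Bl/6J, HFHS), 60.1 ± 81.7 (C57Bl/6J, standard diet), 210.0 ± 86.2 (Balb/c, HFHS) and 200.5 ± 150.3 (Balb/c, standard diet; n = 4, 4, 4 and 2). In hypothalamic Tregs Irf9 was at 0 in 1 of 16 pools, and Balb/c standard-diet pool 37_41 held 139 CPM against 3.03 CPM or less in the other pools of its group.

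Irf4 is induced by T-cell receptor signals and works in effector Tregs, and Irf8 is best known from myeloid and B cells. The flow cytometry gate described for brain CD4+ T cells leaves out cells positive for B220, CD11b, CD11c, CD14 or F4/80. Markers of myeloid and B cells were still read in some libraries, and whether such cells carried Irf8 into them was not tested. Irf4 in hypothalamic Tconv cells averaged 0.333 ± 0.318 CPM (C57Bl/6J, HFHS), 4.25 ± 5.83 (C57Bl/6J, standard diet), 3.35 ± 5.19 (Balb/c, HFHS) and 5.79 ± 11.5 (Balb/c, standard diet; n = 4 each). Irf4 in rest-brain Tconv cells averaged 10.8 ± 9.55 CPM (C57Bl/6J, HFHS), 13.6 ± 10.6 (C57Bl/6J, standard diet), 6.15 ± 3.19 (Balb/c, HFHS) and 8.70 ± 6.20 (Balb/c, standard diet; n = 3, 4, 3 and 3). Irf4 was low in all Tconv groups, and hypothalamic Balb/c standard-diet pool 42_46 (23.0 CPM) made most of its group mean. Irf4 in hypothalamic Tregs averaged 22.1 ± 44.1 CPM (C57Bl/6J, HFHS), 0.119 ± 0.238 (C57Bl/6J, standard diet), 34.3 ± 68.6 (Balb/c, HFHS) and 0 ± 0 (Balb/c, standard diet; n = 4 each). Irf4 in rest-brain Tregs averaged 11.2 ± 13.2 CPM (C57Bl/6J, HFHS), 1.23 ± 2.28 (C57Bl/6J, standard diet), 20.3 ± 32.3 (Balb/c, HFHS) and 2.44 ± 3.30 (Balb/c, standard diet; n = 4, 4, 4 and 2). Irf4 was at 0 in 12 of 16 hypothalamic Treg pools, and pools 26_31 (Balb/c HFHS, 137 CPM) and 72_76 (C57Bl/6J HFHS, 88.2 CPM) carried the HFHS means. Irf8 in hypothalamic Tconv cells averaged 13.6 ± 8.13 CPM (C57Bl/6J, HFHS), 23.0 ± 13.8 (C57Bl/6J, standard diet), 19.8 ± 6.0 (Balb/c, HFHS) and 21.4 ± 3.18 (Balb/c, standard diet; n = 4 each). Irf8 in rest-brain Tconv cells averaged 23.2 ± 12.1 CPM (C57Bl/6J, HFHS), 13.7 ± 7.03 (C57Bl/6J, standard diet), 6.42 ± 2.17 (Balb/c, HFHS) and 7.92 ± 4.09 (Balb/c, standard diet; n = 3, 4, 3 and 3). Irf8 in Tconv cells ran from 6.97 to 43.2 CPM in hypothalamus and from 3.94 to 37.1 CPM in the rest of the brain. Irf8 in hypothalamic Tregs averaged 82.5 ± 112 CPM (C57Bl/6J, HFHS), 308 ± 605 (C57Bl/6J, standard diet), 11 ± 22.0 (Balb/c, HFHS) and 0 ± 0 (Balb/c, standard diet; n = 4 each). Irf8 in rest-brain Tregs averaged 26.8 ± 25.5 CPM (C57Bl/6J, HFHS), 32.6 ± 38 (C57Bl/6J, standard diet), 40.7 ± 58.7 (Balb/c, HFHS) and 152 ± 146 (Balb/c, standard diet; n = 4, 4, 4 and 2). The hypothalamic Treg value of 1216 CPM in C57Bl/6J standard-diet pool 43_47 came with the dendritic and B-cell markers named above, and whether the reads came from those cells was not tested.

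Conventional T cells of the brain can come from its tissue, its meninges and its vessels, and Balb/c and C57Bl/6J mice are known for different T helper leanings. Irf1, Irf7 and Irf9 are themselves induced by interferon. Whether interferon tone differed between the strains was not tested. The 6 Balb/c pools were set against the 7 C57Bl/6J pools with diet in the model. Ranges and the exact permutation, done within each diet, rest on CPM scaled by library total alone. Permutation p are not adjusted. Balb/c pools were lower for 5 of the 8 members, where 11.4% of 12259 genes tested were called lower and 23.6% were called in either direction (edgeR adjusted p under 0.05). Irf1 read 99.4 to 309.5 CPM (median 165) in Balb/c and 256 to 403 CPM (median 316) in C57Bl/6J. 5 of 6 Balb/c pools lay below all C57Bl/6J pools, and the ranges overlapped through Balb/c standard-diet pool 37_41 (log2 fold change -0.64, SE 0.171, edgeR adjusted p 0.0106, exact permutation p 0.00571, 2-sided). Irf7 read 53.1 to 146 CPM (median 113) in Balb/c and 198 to 368 CPM (median 248) in C57Bl/6J. All 6 Balb/c pools lay below all 7 C57Bl/6J pools (log2 fold change -1.09, SE 0.200, edgeR adjusted p 0.000600, exact permutation p 0.00143, the smallest that 700 arrangements allow). Irf9 read 27.2 to 111 CPM (median 59.6) in Balb/c and 73.5 to 186 CPM (median 154) in C57Bl/6J. 3 of 6 Balb/c pools lay below all C57Bl/6J pools and the ranges overlapped (log2 fold change -1.05, SE 0.260, edgeR adjusted p 0.00647, exact permutation p 0.0100). Irf5 read 0.270 to 5.45 CPM (median 3.32) in Balb/c and 4.34 to 28.3 CPM (median 17.8) in C57Bl/6J, with 5 of 6 Balb/c pools below all C57Bl/6J pools (log2 fold change -2.31, SE 0.637, edgeR adjusted p 0.0127, exact permutation p 0.00143). Irf3 read 14.7 to 59.2 CPM (median 42.3) in Balb/c and 50.1 to 101 CPM (median 90.6) in C57Bl/6J, with 4 of 6 Balb/c pools below all C57Bl/6J pools (log2 fold change -0.80, SE 0.273, edgeR adjusted p 0.0401, exact permutation p 0.00714). Irf2 (0.10), Irf4 (-0.41) and Irf8 (-1.04) had edgeR adjusted p of 0.165 or more. Fewer cells of a type and less RNA per cell cannot be told apart in bulk pools such as these.

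**Figure D2:**
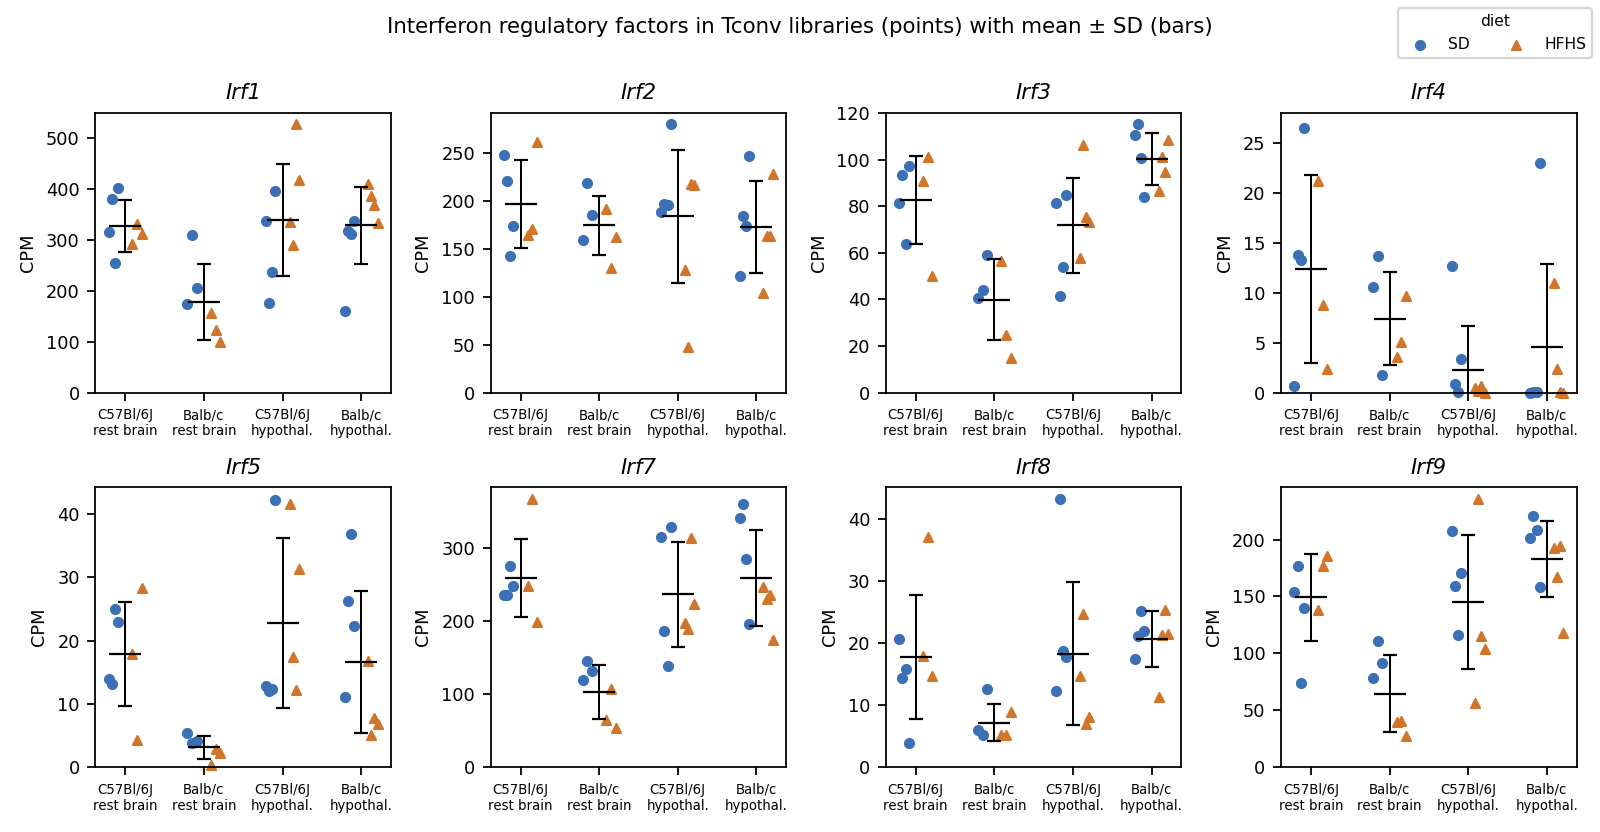
Levels of the 8 members in the 29 Tconv libraries, in CPM (vertical axis), by strain and tissue (horizontal axis), with each point a pool of mice (circles, standard diet, SD in the legend; triangles, HFHS diet). Bars are mean ± standard deviation with n = 7 (C57Bl/6J, rest brain), 6 (Balb/c, rest brain), 8 and 8 (hypothalamus).

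Over the alternative analyses of the strain comparison, the adjusted p of Irf7 ran from 7.17e-06 to 0.0135 (9 of 9 past 0.05), of Irf1 from 0.00404 to 0.305 (7 of 9 past 0.05), of Irf9 from 0.00115 to 0.422 (7 of 9 past 0.05), of Irf5 from 0.000316 to 0.137 (7 of 9 past 0.05) and of Irf3 from 0.0219 to 0.281 (5 of 9 past 0.05), by edgeR, DESeq2 and limma-voom. The folds moved as well. Log2 values, the difference of the permutation test included, ran from -1.38 to -0.81 for Irf7, -0.92 to -0.23 for Irf1, -1.74 to -0.44 for Irf9, -2.68 to -1.86 for Irf5 and -1.10 to -0.43 for Irf3. The values nearest 0 were those of the length offset for Irf1, Irf3 and Irf5 and of the standard diet alone for Irf7 and Irf9. With the standard diet alone only Irf7 passed (-0.81, edgeR), where 809 of 11192 genes did. With the HFHS diet alone Irf1, Irf7 and Irf9 passed by edgeR. The count of genes called was there within 1.5-fold of the 2891 of the main fit. Without the microglia-rich pool 42_46 all 5 stayed below 0.05 by edgeR, where 2930 genes were called. They stood at -0.66 for Irf1, -0.92 for Irf3, -2.36 for Irf5, -1.14 for Irf7 and -1.13 for Irf9. With transcript length as an offset, an analysis chosen after seeing the data, Irf5, Irf7 and Irf2 passed by edgeR. The count of genes called was again within 1.5-fold of that of the main fit, and the median over all genes moved by 0.103. Irf2 had the opposite sign there (0.58). TPM, which also corrects for length, gave a log2 ratio of mean Irf2 levels of -0.54, the other direction. A refit that leaves out 1 pool can also loosen the count filter, which follows the smallest group, so the genes tested can change too. Of these 5 members, Irf3 lost its call in the most such refits. Its edgeR call was lost when any of 9 pools was left out, with fold and adjusted p then as follows: C57Bl/6J HFHS pools 38_42 (-0.70, 0.0972) and 33_37 (-0.77, 0.0724), C57Bl/6J standard-diet pools 67_71 (-0.78, 0.0672), 11_15 (-0.78, 0.0643) and 01_05 (-0.81, 0.0523), Balb/c standard-diet pools 37_41 (-0.80, 0.0659) and 32_36 (-0.78, 0.0789) and Balb/c HFHS pools 47_25 (-0.70, 0.0526) and 16_20 (-0.79, 0.0666). Irf1, Irf5, Irf7 and Irf9 passed in all 13 such refits.

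Genes around the family in the same pools were read as lists, each with its median log2 fold change beside -0.03 over all genes tested by edgeR. Over all 12259 genes tested, 11.4% were called lower and 12.2% higher in Balb/c. Of 17 interferon receptors and JAK-STAT genes tested, 8 were lower and 1 higher in Balb/c (median -0.39), led by Stat3, Usp18 and Socs3 (-1.59, -1.58 and -1.55). Of 16 adaptors and kinases upstream of Irf3, Irf5 and Irf7, 5 were lower and none higher (median -0.64), with Irak4, Ddx58 and Myd88 furthest (-1.16, -1.04 and -0.92). Partners of Irf2, Irf4 and Irf8 had 8 lower and 2 higher of 19 (median -0.92), the AP-1 genes Jun, Junb and Jund leading (-2.76, -2.04 and -2.0). Among targets, ISGF3 and Irf7 genes had 12 lower and 2 higher of 25 (median -0.78), and Bst2 stood at -3.26. Oasl1 read 0 to 0.109 CPM in Balb/c and 0.113 to 16.4 CPM in C57Bl/6J pools, and Oasl2 0 to 0.934 and 17.3 to 103 CPM, too near the floor in Balb/c for a fold. Irf1 and interferon gamma targets were split, with 9 lower and 5 higher of 25 (median -0.30; Il12rb1 -3.60, Tap2 -1.59, Gbp6 -1.53), and Irf4 targets had 5 lower and 1 higher of 20 (median -0.46; Pdcd1 -3.18, Tnfrsf9 -2.59, Ahr -2.48). These genes are listed because they neighbour the family, and a link from Irf levels to them was not tested.

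Beside the Irf values, all 8 T-cell markers were detected in every pool, and their sum ran from 7964 to 9230.0 CPM in Balb/c and 8166 to 10360.0 CPM in C57Bl/6J pools, with Cd4 (-1.02), Lck (-0.92) and Cd5 (-0.91) lower, Cd3g (0.71) higher and Cd3e (-0.22) not called by edgeR. Of 14 microglial markers, 5 to 14 were detected per pool, and Tmem119 was at 0 in 6 pools and P2ry12 in 1. Their sums were 105 to 939 CPM in Balb/c pools, the highest being 42_46 and the next 152.7 CPM, and 71.9 to 151 CPM in C57Bl/6J pools, with Siglech and Csf1r among those called higher in Balb/c. Balb/c pools also gave 15.9 to 20.3% of counts to their 20 most abundant genes, against 10.4 to 13% in C57Bl/6J pools, and Tmsb4x alone stood at 36570.0 to 60100.0 against 17910.0 to 27710.0 CPM. A change of cell mix or of RNA make-up could lower Irf levels without a change per cell, and this was not tested.

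The hypothalamus is a small region with its own blood-brain interface, and Irf levels in its T cells need not follow those of the rest of the brain. The same strain contrast in hypothalamic Tconv cells (8 pools each) called none of the 8 members, where 2.10% of genes were called by edgeR (0.996% higher and 1.11% lower). Member log2 fold changes ran from -0.63 to 1.88 (adjusted p 0.284 to 0.993). Irf3, the nearest, read 84.0 to 115 CPM (median 101) in Balb/c and 41.6 to 106 CPM (median 74.4) in C57Bl/6J, with a log2 fold change of 0.48 (edgeR unadjusted p 0.0155, adjusted p 0.284, exact permutation p 0.00531) and overlapping ranges. Called neighbours of the family were Ifngr1 (-1.03), Junb (-0.72), Nlrc5 (-1.09), Gbp4 (0.65), Psmb9 (0.53) and Bst2 (-1.63). In hypothalamic Tregs none of the 7 members tested was called, where 0.0389% of 7709 genes were (0.0130% higher and 0.0259% lower), and Irf4 had too few counts to be tested (log2 fold changes -8.41 to 1.56, edgeR adjusted p 1). In rest-brain Tregs none of 8 was called, where 0.30% of genes were, 0.146% higher and 0.154% lower (log2 fold changes -0.51 to 1.23, edgeR adjusted p 1). Over pools of both strains in the rest of the brain, the SD of log2 CPM was higher in Tregs than in Tconv cells for Irf1 (2.37 against 0.637), Irf5 (2.35 against 1.39), Irf7 (2.01 against 0.832) and Irf9 (2.70 against 0.911), and not for Irf3 (0.782 against 0.805).

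Because 5 Irf members were called by strain in rest-brain Tconv cells and none in hypothalamic ones, the difference between those differences was tested over all 29 Tconv pools, a comparison added after the data were seen. It uses the same pools as the strain comparisons above, so it is not further evidence for them. Fewer genes were detected in hypothalamic than in rest-brain Tconv pools (median 10895.5 against 15123), and whether this bears on the test was not tested. A positive value means that Balb/c minus C57Bl/6J was higher in hypothalamus. 3 of 8 members were called, all positive, where 4.84% of 12803 genes were called positive and 10.4% in either direction by edgeR. The Balb/c to C57Bl/6J log2 fold change of Irf3 was 0.48 for hypothalamic and -0.80 for rest-brain pools (interaction 1.31, SE 0.322, edgeR adjusted p 0.00710, 0.00165 to 0.0639 (6 of 7 past 0.05) over alternatives). For Irf7 they were 0.11 and -1.09 (interaction 1.22, SE 0.279, edgeR adjusted p 0.00413, 0.000622 to 0.0321 (7 of 7 past 0.05)), and for Irf9 0.33 and -1.05 (interaction 1.39, SE 0.351, edgeR adjusted p 0.00851, 0.00204 to 0.0893 (6 of 7 past 0.05)). All 3 passed in each of the 29 refits that left a pool out. With transcript length as an offset Irf7 alone passed, where 677 of 12803 genes did, and the median over all genes moved by -0.120. Irf1 (0.61), Irf5 (1.70) and Irf8 (1.24) were positive without being called (edgeR adjusted p 0.209, 0.182 and 0.272), as was Irf4 (1.87, 0.642), and Irf2 was negative (-0.17, 0.852). Among neighbours, medians were 0.50 for JAK-STAT genes (5 positive, 1 negative of 17; Usp18 1.60, Stat2 1.40, Ifnar1 1.33), 0.35 for ISGF3 and Irf7 targets (5 and 1 of 25; Dhx58 2.27, Bst2 1.65) and 0.31 for Irf1 targets (5 and 1 of 25; Tap1 1.45, Tap2 1.40, Tapbp 1.29), against 0.08 over all genes. Medians were 0.63 for adaptors of Irf3, Irf5 and Irf7 (1 and 1 of 16; Ikbkb 1.0, Peli1 -0.88), 0.62 for partners (5 and 0 of 19; Jun 2.19, Jund 1.56, Fkbp4 1.36) and 0.26 for Irf4 targets (0 and 1 of 20; Maf -1.03).

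Tregs run on Foxp3, and Irf4 with Batf drives their effector program, while Irf5 is usually discussed as a myeloid and B-cell factor. The comparison of the 14 rest-brain Treg pools with the 13 rest-brain Tconv pools called 1 of 8 members, Irf5, as higher in Tregs, where 4.37% of 13921 genes were called higher and 14.9% in either direction by edgeR. Irf5 read 0 to 165 CPM (median 55.1) in Tregs and 0.270 to 28.3 CPM (median 5.45) in Tconv cells. 10 of 14 Treg pools lay above all Tconv pools and 2 were at 0, C57Bl/6J standard-diet pool 01_05 and Balb/c standard-diet pool 42_46 (log2 fold change 2.75, SE 0.814, edgeR adjusted p 0.0191). Over alternatives the log2 fold change ran from 1.74 to 4.14 and the adjusted p from 0.000530 to 0.560 (8 of 12 past 0.05). The call was lost with limma-voom (1.74, adjusted p 0.157), with the pool of mice as a replicate block (2.19, edgeR adjusted p 0.275), in C57Bl/6J mice alone (1.89, adjusted p 0.49), on the standard diet alone (1.95, adjusted p 0.56) and without C57Bl/6J standard-diet Treg pool 11_15 (2.42, edgeR adjusted p 0.0526). The other 7 members ran from -1.0 to 1.83 (edgeR adjusted p 0.138 to 0.963). In Balb/c mice alone 5 members were called higher by edgeR, where 929 of 12932 genes were, Irf5 (3.83), Irf8 (3.06), Irf9 (1.66), Irf1 (1.46) and Irf3 (1.41).

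**Figure D3:**
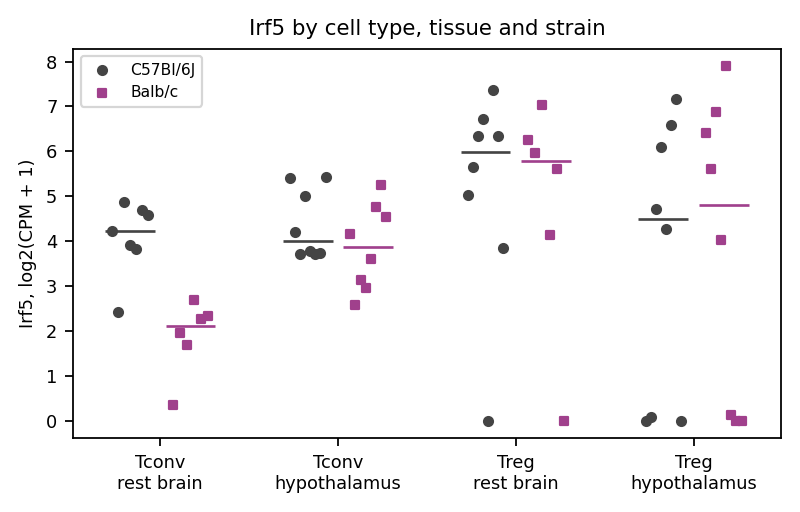
Irf5 as log2(CPM + 1) (vertical axis) in the 59 libraries by cell type and tissue (horizontal axis), with each point a pool of mice (circles, C57Bl/6J; squares, Balb/c). Horizontal lines are medians.

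Over all genes of this comparison, 4.37% were called higher and 10.5% lower in Tregs by edgeR. In the same pools Irf4 targets had 12 higher and none lower of 20 in Tregs (median 1.63 against -0.20 over all genes). Tnfrsf9, Areg and Klrg1 led the called genes of this list (6.34, 5.05 and 4.16), although Irf4 itself was not called. The list was not tested as a set, and it holds Ctla4 and Ikzf2, which are also Treg markers. Irf1 and interferon gamma targets had 6 higher and 2 lower of 25 (median 0.49; Tap2 1.51, Tapbp 1.32), and partners had 5 and 3 of 20 (median 0.50; Swap70 5.18). Spi1 was at 0 in all Treg pools and at 0 to 3.87 CPM in Tconv pools, Spib at 0 to 0.127 and 0 to 5.08 CPM, and Ciita at 0 to 0.0957 and 0 to 2.51 CPM, all called lower and too near the floor for a fold. All 3 lie below the median of their list at any floor, so the medians do not depend on them. JAK-STAT genes had 3 and 2 of 17 (median 0.34; Jak2 -1.33, Stat3 1.02, Stat4 -0.84), adaptors of Irf3, Irf5 and Irf7 3 and none of 17 (median 0.12; Ikbke 1.45, Sting1 1.18, Ikbkb 0.89), and ISGF3 targets 1 and none of 25 (median -0.26; Bst2 1.32). Irf5 is also a gene of microglia and B cells. Of 14 microglial markers 1 to 10 were detected in Treg pools (median sum 203 CPM, 54.9 to 546) and 5 to 14 in Tconv pools (median sum 128 CPM, 71.9 to 939, the next highest 152.7). The sums of 8 B-cell markers had medians of 42.1 (0 to 133) and 13.4 (1.49 to 175) CPM. At the median both sums were thus higher in Tregs, as Irf5 was. C57Bl/6J standard-diet Treg pool 11_15, without which the edgeR call of Irf5 was lost (adjusted p 0.0526), held the highest Irf5 (164.8 CPM) and the highest microglial sum (546.5 CPM) of the rest-brain Treg pools. The flow cytometry gate described for brain CD4+ T cells, with Tregs inside it, leaves out B220, CD11b, CD11c, CD14 and F4/80 positive cells. Markers of B cells and microglia were still read in pools of both cell types, as given above. Whether Irf5 came from Tregs or from such cells was not tested.

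In hypothalamus the 16 Treg pools were compared with 16 Tconv pools. None of the 8 members was called, where 7.72% of 11254 genes were called by edgeR (0.542% higher and 7.18% lower) and 1848 had an unadjusted p under 0.05. Member log2 fold changes ran from -0.72 to 1.42 (adjusted p 0.634 to 0.992) beside a median of -0.59 over all genes. DESeq2 called 1598 genes and none of the members, limma-voom with quality weights 7312 genes and Irf3, Irf7, Irf8 and Irf9, and edgeR with the pool as a block 5528 genes and Irf4, but the last analyses moved the median over all genes by -3.01 and -4.28. Irf4 targets had 5 higher and none lower of 20 (median 1.02; Areg 6.61, Il1rl1 5.94, Tnfrsf9 4.88), and the partner gene Ikzf1 was lower (-3.10), with all 16 Treg pools below all Tconv pools. Oasl1, an ISGF3 target, was at 0 in every Treg pool and at 0 to 23.1 CPM in Tconv pools, and medians were -0.48 for JAK-STAT genes, -0.70 for adaptors, -0.37 for partners, 0.26 for Irf1 targets and 0.26 for ISGF3 targets. Microglial markers summed to 0.0567 to 31480.0 CPM in Treg and 66.3 to 222 CPM in Tconv pools, so Irf levels in these Treg pools cannot be given to 1 cell type.

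Interferon signalling differs between brain regions and borders, and Tconv libraries of hypothalamus and of the rest of the brain share pool labels in part. The 16 hypothalamic and 13 rest-brain Tconv pools are those of the strain comparisons. Genes detected ran from 10191 to 12199 (median 10895.5) in hypothalamic and from 11933 to 16787 (median 15123) in rest-brain pools. Irf4 had fewer than 3 counts in 7 of 16 hypothalamic and 0 of 13 rest-brain pools. Whether the number of genes detected bears on the calls was not tested. 1 of 8 members, Irf5, was called as higher in hypothalamus, where 5.69% of 12803 genes were called higher and 16.9% in either direction by edgeR. Irf5 read 5.01 to 42.2 CPM (median 14.8) in hypothalamus and 0.270 to 28.3 CPM (median 5.45) in the rest of the brain. 4 of 16 hypothalamic pools lay above all rest-brain pools, and the ranges overlapped (log2 fold change 1.26, SE 0.436, edgeR adjusted p 0.0434). Over alternatives the log2 fold change ran from 0.36 to 2.09 and the adjusted p from 0.00650 to 1 (4 of 12 past 0.05), with 1.45 and edgeR adjusted p 0.141 for the pool as a replicate block. Leaving out any of 16 pools also ended the call, with fold and edgeR adjusted p then as follows: rest-brain C57Bl/6J HFHS pool 38_42 (1.2, 0.0521), rest-brain C57Bl/6J standard-diet pools 11_15 (1.23, 0.0609) and 01_05 (1.24, 0.0603), hypothalamic C57Bl/6J HFHS pools 06_10 (1.15, 0.0822) and 77_80 (1.22, 0.0621), hypothalamic C57Bl/6J standard-diet pool 67_71 (1.25, 0.0623), rest-brain Balb/c standard-diet pools 37_41 (1.2, 0.0649), 32_36 (1.25, 0.0582) and 42_46 (1.19, 0.0667), rest-brain Balb/c HFHS pools 47_25 (1.19, 0.0718), 15_21 (1.09, 0.0650) and 16_20 (1.24, 0.0612), hypothalamic Balb/c HFHS pool 11_14 (1.2, 0.0569) and hypothalamic Balb/c standard-diet pools 37_41 (1.14, 0.0738), 32_36 (1.2, 0.0633) and 42_46 (1.22, 0.0603). Irf9 (0.61) and Irf7 (0.47) were next (edgeR adjusted p 0.0528 and 0.0765), and the 7 others ran from -2.0 to 0.65. In Balb/c mice alone 6 members were higher in hypothalamus by edgeR, where 1227 of 11786 genes were, Irf5 (2.09), Irf9 (1.36), Irf8 (1.25), Irf3 (1.08), Irf7 (1.08) and Irf1 (0.63). In C57Bl/6J mice alone no member was called, where 1 of 11458 genes was. Calls in a strain do not show that the strains differ, and the test of that difference, strain by tissue, called Irf3, Irf7 and Irf9.

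Over all genes of this comparison, 5.69% were called higher and 11.3% lower in hypothalamus by edgeR. Around the family, partners had 7 higher and 1 lower of 19 in hypothalamic Tconv cells (median 0.30 against -0.09 over all genes). Jund stood at 1.23 and Jun at 1.13, and Spi1 was at 0 in all hypothalamic pools and 0 to 3.87 CPM in the others. Irf1 targets had 7 and 2 of 25 (median 0.21; Il12rb1 1.79, Tapbp 1.08, Tap2 1.0), JAK-STAT genes 4 and none of 17 (median 0.14; Socs3 0.98, Stat2 0.86, Stat3 0.79) and adaptors of Irf3, Irf5 and Irf7 2 and none of 16 (median 0.21; Ikbke 0.67, Ikbkb 0.58). ISGF3 targets had 1 and 1 of 25 (median 0.16; Bst2 1.09, Parp14 -0.85) and Irf4 targets none and 2 of 20 (median -0.24; Ikzf2 -1.46, Maf -1.14). Microglia also express Irf5 and Irf8, and 9 of 13 microglial markers tested were lower in hypothalamic pools, P2ry12 reading 0 to 0.0562 CPM there and 0 to 265 CPM (median 4.63) in the rest of the brain.

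Between hypothalamic and rest-brain Tregs (16 and 14 pools) none of the 8 members was called, where 4.92% of 12571 genes were by edgeR (0.310% higher and 4.61% lower) and 1668 had an unadjusted p under 0.05. Member log2 fold changes ran from -1.60 to 0.24 (edgeR adjusted p 0.900 to 1) beside a median of -0.61 over all genes. DESeq2 called 1193 genes and no member, limma-voom 4714 genes and Irf3, and edgeR with the pool as a block none. Among neighbours Il10, an Irf4 target, was called lower in hypothalamus, at 0 to 29 CPM (median 0) against 0 to 201 CPM (median 35.6), and Oasl1 was at 0 in all hypothalamic pools and 0 to 31.5 CPM in the rest of the brain.

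Obesity raises inflammatory signals in the hypothalamus, and Irf1 is induced by several of them, so Irf1 is given in full for each diet comparison whether or not it was called. In hypothalamic Tconv cells (8 pools per diet) none of the 8 members was called, where 0% of genes were called by edgeR. 405 genes had an unadjusted p under 0.05, and DESeq2 called 13 genes and limma-voom 0. Irf1 read 289.9 to 529 CPM (median 379) in HFHS and 161 to 397 CPM (median 315) in standard-diet pools, with 3 HFHS pools above all standard-diet pools and overlapping ranges (log2 fold change 0.47, SE 0.175, edgeR p 0.0159, adjusted p 1, exact permutation p 0.0302, adjusted p over alternatives 0.355 to 1). All 8 members ran from -2.14 to 0.47. In rest-brain Tconv cells (6 HFHS and 7 standard-diet pools) none of 8 was called, where 0% of genes were by edgeR, with 594 genes under an unadjusted 0.05, 12 called by DESeq2 and 1 by limma-voom. Irf1 leaned the other way there, at 99.4 to 331 CPM (median 224) in HFHS and 174 to 403 CPM (median 309.5) in standard-diet pools, with the ranges overlapping (log2 fold change -0.39, SE 0.170, edgeR p 0.0334, adjusted p 0.963, exact permutation p 0.0457, adjusted p over alternatives 0.307 to 1), and all members ran from -0.61 to 0.37. In hypothalamic Tregs (8 pools per diet) none of the 7 members tested was called, where 0% of genes were by edgeR (213 unadjusted, 182 by DESeq2, 4 by limma-voom). Irf1 read 128 to 1029 CPM (median 285) in HFHS and 0.293 to 1570.0 CPM (median 322) in standard-diet pools (log2 fold change -0.05, SE 0.869, edgeR p 0.957, adjusted p 1, exact permutation p 0.713, adjusted p over alternatives 0.995 to 1), and its sign turned in 6 of 16 refits, most without C57Bl/6J standard-diet pool 43_47 (0.33). Members ran from -0.83 to 3.65. In rest-brain Tregs (8 HFHS and 6 standard-diet pools) none of 8 was called, where 0% of genes were by edgeR (850 unadjusted, 326 by DESeq2, 16 by limma-voom). Irf1 read 219.5 to 593 CPM (median 362) in HFHS and 0.120 to 851 CPM (median 512) in standard-diet pools (log2 fold change -0.35, SE 0.752, edgeR p 0.647, adjusted p 1, exact permutation p 0.967, adjusted p over alternatives 0.872 to 1), and members ran from -0.99 to 3.11. EdgeR called no gene of the neighbour lists in these 4 diet comparisons.

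Irf levels could also answer the diet differently in each strain, which was tested as strain by diet. None of the members was called in hypothalamic Tconv cells, hypothalamic Tregs or rest-brain Tregs, where 0%, 0% and 0% of genes were called by edgeR and 490, 1297 and 654 had an unadjusted p under 0.05. DESeq2 called 190, 1330 and 574 genes there, with Irf8 among those of hypothalamic Tregs, and limma-voom 0, 110 and 1 without any member. Member values ran from -1.75 to 2.78, -2.82 to 12.19 and -2.14 to 1.56. In rest-brain Tconv cells 0.963% of genes (118; 0.816% higher and 0.147% lower) and none of 8 members were called by edgeR, the nearest being Irf9 at -1.33 (p 0.00401, adjusted p 0.110), which DESeq2 called among 669 genes, and members ran from -1.33 to 0.18. Without rest-brain pool 42_46 no gene was called there by edgeR. Cell type by tissue, over all 59 pools, called 12.9% of 14727 genes (8.16% higher and 4.78% lower) and none of the 8 members by edgeR (-1.34 to 1.93, adjusted p 0.485 to 0.983), with none by DESeq2 and Irf3, Irf5, Irf7, Irf8 and Irf9 by limma-voom, which called 5904 genes. These interactions use the same pools as the comparisons above.

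The pilot sorted naive-type Tconv cells and Tregs from hypothalamus, an earlier state than the activated cells above, with 1 library per group and 99925 to 5334511 counts per library. No replicate spread exists, so ratios of normalized counts and their counting intervals are given, and pool-to-pool variation is not in them. In the order HFHS and standard-diet Tconv, HFHS and standard-diet Treg, ob/ob and wild-type CD4+, and ob/ob and wild-type CD25hi, counts of Irf1 were 125, 644, 433, 46, 56, 108, 0 and 61, of Irf2 438, 618, 369, 224, 527, 40, 5 and 1695 and of Irf3 22, 304, 71, 235, 27, 0, 0 and 9. In that order Irf7 held 117, 328, 45, 32, 196, 0, 0 and 0, Irf5 0, 16, 18, 0, 0, 0, 0 and 4 and Irf9 256, 597, 226, 201, 364, 0, 30 and 0 counts, and Irf4 and Irf8 held 0, 81, 0, 0, 0, 0, 0 and 0 and 0, 17, 0, 0, 0, 0, 3 and 784. Irf4 was read in the standard-diet Tconv library alone. Labels and markers parted in places where Irf values depend on them. Foxp3 stood at 72.7 CPM in standard-diet Tconv cells and 75.3 CPM in standard-diet Tregs, against 1.38 CPM in HFHS Tconv cells, and at 299.5 CPM in wild-type CD4+ cells against 27.8 CPM in ob/ob CD4+ cells. The sum of 7 Treg markers, Foxp3 among them, went with the labels of the diet libraries. It was 304.3 CPM in standard-diet and 679 CPM in HFHS Tconv cells, against 6069 and 3706 CPM in the Tregs. In CD4+ cells this sum was 2918 CPM for wild-type and 1266 CPM for ob/ob mice. The wild-type CD25hi library had Foxp3 at 2.44 CPM, Cd4 and Cd3d at 0, and 14 of 14 microglial markers with a sum of 41510.0 CPM, P2ry12 being the most abundant at 18730.0 CPM. The standard-diet Treg library had astrocyte markers at 729.9 CPM (Aqp4 586.5) and B-cell markers at 313.5 CPM (Ms4a1 222), against 34 and 0 CPM in the HFHS Treg library. Microglial markers summed to 1911 CPM in the ob/ob CD25hi library, and B-cell markers to 376.7 CPM in the wild-type and 11.6 CPM in the ob/ob CD4+ library. Whether these bear on the Irf ratios below was not tested.

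In pilot Tconv cells 3 of the 6 members tested were lower with the HFHS diet by more than 2-fold, where 37% of 6686 genes were lower and 61.9% changed either way. Irf1 had 125 against 644 counts, a ratio of 0.331 (0.271 to 0.401), Irf3 22 against 304, a ratio of 0.123 (0.0761 to 0.190), and Irf4 0 against 81, at least 15.85-fold lower. Irf2, Irf7 and Irf9 had ratios of 1.21 (1.07 to 1.37), 0.608 (0.488 to 0.753) and 0.731 (0.629 to 0.847). In pilot Tregs 2 of 5 members tested passed, where 80.5% of 5445 genes did, Irf1 with 433 against 46 counts higher, a ratio of 7.84 (5.77 to 10.9), and Irf3 with 71 against 235 lower, a ratio of 0.252 (0.190 to 0.329), while Irf2, Irf7 and Irf9 had ratios of 1.37 (1.16 to 1.63), 1.17 (0.728 to 1.90) and 0.936 (0.771 to 1.14). So Irf1 moved in opposite directions in the libraries of both cell types, each time with 1 library per group. Against a median log2 ratio of -0.24 over all Tconv genes, medians were 1.91 for ISGF3 targets (10 higher, 2 lower of 14), 0.66 for Irf1 targets (8 and 6 of 20), 1.37 for Irf4 targets (5 and 1 of 8), -0.13 for JAK-STAT genes, -1.08 for adaptors and -0.19 for partners. In Tregs, against 0.76, they were -0.17, -0.23, 1.83, 0.46, 0.94 and 0.46 in the same order. In ob/ob against wild-type CD4+ cells 3 of 4 members tested passed, where 89.9% of 6440 genes did. Irf1 was lower (56 against 108 counts, ratio 0.0665 (0.0473 to 0.0927)), and Irf7 (196 against 0) and Irf9 (364 against 0) were at least 8.38-fold and 15.56-fold higher, with Irf2 at 1.69 (1.22 to 2.39). In CD25hi cells 4 of 4 passed, where 91.4% of 5978 genes did. Irf1 was at least 1.30-fold lower (0 against 61), a bound under 2-fold, and had too few normalized counts to be tested with size factors over 2 or 4 libraries, Irf2 (5 against 1695) and Irf8 (3 against 784) had ratios of 0.0461 (0.0149 to 0.108) and 0.0598 (0.0123 to 0.175), and Irf9 was at least 156-fold higher (30 against 0), all against a wild-type library rich in microglial reads. Median log2 ratios over all genes were 4.51 and -5.07, so scaling between these libraries is itself uncertain. With more than 20 normalized counts required in both libraries, 1 of 4, 2 of 5, 1 of 2 and 2 of 2 members tested passed in the 4 comparisons, in the order given. Of all genes tested, 1509 of 3843, 976 of 1978, 1046 of 1644 and 899 of 1391 did.

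Members of this family are themselves induced through sites that other members or Stat dimers bind. Windows from 250 bases before to 50 bases after starts in the RefSeq annotation of mouse build GRCm38.p6 were therefore searched on both strands. The outermost listed ends of Irf5 (chr6:29526130) and Irf7 (chr7:141266499) were not among these starts, so no window was placed on them. The 8 members had 11 windows. Irf2 alone held the interferon response core GAAANNGAA, which lies in 8.56% of 32851 windows, and an Ets-IRF composite, GGAANNGAA, in 8.24%, that overlaps it. The Stat motif TTCNNNGAA, in 8.3% of windows, lay in Irf1, Irf2 and Irf8, and the other 5 members lacked all 3 letter patterns in the window searched. Stretches around the matches are shown to let the letters be read, written on the plus strand with each match in capitals.
Irf1 chr11:53769909-53769947: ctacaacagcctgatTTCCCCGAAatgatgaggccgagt
Irf2 chr8:46739495-46739544: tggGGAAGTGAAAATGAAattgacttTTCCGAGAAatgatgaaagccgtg
Irf8 chr8:120736172-120736228: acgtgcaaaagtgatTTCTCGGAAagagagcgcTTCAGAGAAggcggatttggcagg
A match is a description of letters, not a binding site and not a cause of the levels above.

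Of the 3 transcript names of Irf1, 1 held 97.8% of estimated counts in rest-brain and 99.2% in hypothalamic Tconv cells, Irf3 had 87.1 and 90.5% in 1 of 2 names, Irf5 was read in 1 of 2 names, and Irf2 and Irf4 had 1 name each. Irf7 split 56.3, 38.6 and 5.16% and Irf9 64.5, 19.5 and 16.1% over 3 names in rest-brain Tconv cells, and Irf8 had 98.45% there and 100% in hypothalamic Tconv cells in 1 of 2. In hypothalamic Tregs the same names held 89% for Irf1 and 75.1% for Irf3, and from pool to pool these shares ran from 0 to 100% and from 0 to 99.9%.

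Genes whose levels followed each member most closely were read as Pearson r over the 59 libraries, with r in the 29 Tconv libraries second, out of 10609 genes. Irf1 was followed by Nt5c (0.85, -0.47), Ppp1ca (0.76, 0.32) and Hspa5 (0.71, 0.49). Irf2 was followed by Eef1g (0.92, 0.00), Pebp1 (0.90, -0.11) and Maf1 (0.90, -0.11). Irf3 was followed by Mapk9 (0.88, 0.09), H2-M3 (0.86, 0.37) and Diaph1 (0.84, 0.04). Irf7 was followed by Ifi35 (0.86, 0.04), Herc6 (0.84, 0.57) and Nde1 (0.83, 0.48). Irf5 was followed by Gabarapl1 (0.64, 0.39), Yipf3 (0.63, 0.56) and Immt (0.60, 0.42). Irf9 was followed by Rnf4 (0.76, 0.27) and Dstn (0.76, -0.15). Irf4 was followed by Ccl1 (0.61, 0.65), Iqcc (0.61, 0.24) and Rnf149 (0.59, 0.35). Irf8 was followed by Rrp7a (0.67, 0.48), Plbd2 (0.67, 0.55) and Sart3 (0.65, 0.34). Ifi35 and Herc6, beside Irf7, are interferon-induced genes. Values within Tconv cells alone were lower for all of these but Ccl1, and these r are a description of the libraries as a whole.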

How the data were processed

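The data are bulk RNA sequencing of sorted brain T cells, 8 pilot libraries and 59 of a second experiment, each from pooled mice, so a replicate is a pool and not an animal. Labels 15_21 and 16_20, both among the Balb/c HFHS pools, overlap if read as ranges of animal numbers, so these pools may share mice, and label 67_66 matches no other. For the pilot the authors deposited counts per gene symbol, made with BWA and HTSeq on mm10. 82.9 to 99.6% of the pilot reads were not assigned to a gene. For the second experiment the authors deposited Salmon estimated counts and TPM per transcript name (nf-core pipeline, mm10), and CPM were computed here from the deposited estimated counts. The sample labels give no tool versions and no strandedness, and the study text gives a version for the nf-core pipeline that is not repeated here.

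Of 35034 transcript names 34850 (99.47%) were matched to a gene symbol. Estimated counts were summed per gene, rounded and tested with edgeR 4.0.16 in R 4.3.3 (TMM scaling, quasi-likelihood F test, 2-sided). Each fit held only the libraries of its comparison, with the remaining factors as covariates. A gene was tested where the number of libraries in which it passed 10 counts reached the size of the smallest group. Adjusted p are Benjamini-Hochberg over all genes tested, and 0.05 was the threshold. Median-of-ratios size factors scaled the pilot counts. Genes with more than 20 normalized counts in at least 1 library and a ratio above 2 or below 0.5 were called, and intervals are exact 95% binomial. Floors are 3 counts per library, and intervals and floors cover counting error alone. Other tools were DESeq2 1.42.0, limma 3.58.1, Python 3.11.15, numpy 2.4.6, pandas 2.3.3, scipy 1.17.1 and matplotlib 3.10.9.

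The members and the lists of genes around them were chosen with earlier results of these data known. The study text itself names Irf1 from the pilot Treg diet comparison. The pilot diet comparisons are therefore not independent evidence for Irf1. All members have levels in every group. Fold change, SE and adjusted p are given for members with an adjusted p under 0.05 and for Irf1 in diet comparisons, and up to 3 genes with the largest change among those called are named per list. Up to 3 genes per member are named for likeness (Pearson r of log2 TMM-scaled CPM plus 1, genes past 10 counts in 15 or more libraries). A few results that this rule covers are not reported here. Other members singled out beside a result were chosen after their values were seen. Usp18, Prdm1 and Batf are among the genes that sit in 2 lists, and Ctla4 and Ikzf2 are also Treg markers.

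Alternatives were the DESeq2 test, DESeq2 size factors, other count filters, limma-voom, a replicate block, parts of the libraries, exact permutation, TPM levels and leaving out each library. A length offset, the analysis without doubted libraries and strain by tissue were added after seeing the data. The fits were also tested on simulated data. No 2 replicates were identical in 82 pairs checked. Of 46 pairs of libraries with a shared pool label none had residuals correlated above 0.1, and the label is the only sign that they came from the same mice.

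Other genes overlap Irf1, Irf2, Irf3, Irf5 and Irf7 on the opposite strand and Irf8 and Irf9 on the same strand, so reads of those loci are uncertain in origin. Promoter windows are from RefSeq (GRCm38.p6). The planned identity of the proteins could not be computed, as no protein sequences were available. The length of the diet in the second experiment was not given in the sources used here.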

Additional observations from a re-analysis of the deposited data

Results flagged for a closer look

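In 19 of 96 groups of 4 pools by member, the highest or lowest pool lay far from the other 3, where chance gives about 1 in 20 for evenly spread values. Where the other pools are at or near 0 CPM, a pool with any counts stands apart by construction, so that rate does not apply to those. 12 of the 19 were in hypothalamic Tregs and 18 were high. Among Tconv cells, Irf2 at 280.4 CPM in pool 67_71 of C57Bl/6J standard-diet hypothalamic Tconv cells (above the nearest pool at 196 CPM) and Irf5 at 42.2 CPM in pool 67_71 of C57Bl/6J standard-diet hypothalamic Tconv cells (above the nearest pool at 12.8 CPM) stood apart. Irf1 at 161 CPM in pool 06_10 of Balb/c standard-diet hypothalamic Tconv cells (below the nearest pool at 313 CPM) and Irf4 at 23.0 CPM in pool 42_46 of Balb/c standard-diet hypothalamic Tconv cells (above the nearest pool at 0.112 CPM) stood apart. Among rest-brain Tregs, Irf7 at 379.7 CPM in pool 77_80 of C57Bl/6J HFHS rest-brain Tregs (above the nearest pool at 163 CPM) and Irf4 at 4.65 CPM in pool 62_66 of C57Bl/6J standard-diet rest-brain Tregs (above the nearest pool at 0.200 CPM) stood apart. Irf8 at 128 CPM in pool 16_20 of Balb/c HFHS rest-brain Tregs (above the nearest pool at 19.8 CPM) stood apart.

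Among hypothalamic Tregs, Irf1 at 1029 CPM in pool 06_10 of C57Bl/6J HFHS hypothalamic Tregs (above the nearest pool at 378 CPM) and Irf4 at 88.2 CPM in pool 72_76 of C57Bl/6J HFHS hypothalamic Tregs (above the nearest pool at 0.0858 CPM) stood apart. Irf1 at 1570.0 CPM in pool 43_47 of C57Bl/6J standard-diet hypothalamic Tregs (above the nearest pool at 366 CPM) and Irf3 at 53.4 CPM in pool 11_15 of C57Bl/6J standard-diet hypothalamic Tregs (above the nearest pool at 0.580 CPM) stood apart. Irf4 at 0.475 CPM in pool 11_15 of C57Bl/6J standard-diet hypothalamic Tregs (above the nearest pool at 0 CPM) and Irf8 at 1216 CPM in pool 43_47 of C57Bl/6J standard-diet hypothalamic Tregs (above the nearest pool at 15.1 CPM) stood apart. Irf4 at 137 CPM in pool 26_31 of Balb/c HFHS hypothalamic Tregs (above the nearest pool at 0 CPM) and Irf8 at 44.0 CPM in pool 15_21 of Balb/c HFHS hypothalamic Tregs (above the nearest pool at 0 CPM) stood apart. Irf3 at 477 CPM in pool 06_10 of Balb/c standard-diet hypothalamic Tregs (above the nearest pool at 0.391 CPM) and Irf5 at 237 CPM in pool 06_10 of Balb/c standard-diet hypothalamic Tregs (above the nearest pool at 0.0977 CPM) stood apart. Irf7 at 298 CPM in pool 42_46 of Balb/c standard-diet hypothalamic Tregs (above the nearest pool at 0.0977 CPM) and Irf9 at 139 CPM in pool 37_41 of Balb/c standard-diet hypothalamic Tregs (above the nearest pool at 3.03 CPM) stood apart.

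The strain difference of 3 members was not the same in hypothalamic and rest-brain Tconv cells, by a test of the difference itself that was added after the data were seen. Its log2 value was 1.31 for Irf3, 1.22 for Irf7 and 1.39 for Irf9, where 10.4% of all genes tested were called by edgeR. The cause was not tested.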

How the results depend on the processing

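The 5 members lower in Balb/c rest-brain Tconv cells kept their sign in all alternatives, and Irf7 kept its call in all. Irf5 kept its sign in the 3 comparisons that called it and lost its call in 2 or more alternatives of each. In the lists that follow, the named analyses gave counts of genes or of members more than 1.5-fold away from those reported. In the pilot, members called were also 4 for CD4+ cells with size factors over 2 libraries and with CPM (3 reported), and 3 for CD25hi cells with size factors over 2 or 4 libraries (4 reported).

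With the DESeq2 Wald test, genes called were 1598 for hypothalamic Tregs against Tconv cells, 1193 for Tregs by tissue, 545 for strain in hypothalamic Tconv cells, 250 for strain in hypothalamic Tregs, 298 for strain in rest-brain Tregs, 13 for diet in hypothalamic Tconv cells, 182 for diet in hypothalamic Tregs, 12 for diet in rest-brain Tconv cells, 326 for diet in rest-brain Tregs, 190 for strain by diet in hypothalamic Tconv cells, 1330 for strain by diet in hypothalamic Tregs, 669 for strain by diet in rest-brain Tconv cells, 574 for strain by diet in rest-brain Tregs and 1236 for cell type by tissue, and members called were 2 (Irf3 and Irf5) for rest-brain Tregs against Tconv cells, 3 (Irf5, Irf7 and Irf9) for Tconv cells by tissue, 1 (Irf8) for strain by diet in hypothalamic Tregs and 1 (Irf9) for strain by diet in rest-brain Tconv cells. With DESeq2 size factors in edgeR, members called were 2 (Irf5 and Irf9) for Tconv cells by tissue. With a filter of more than 10 counts in total, genes called were 1412 for hypothalamic Tregs against Tconv cells, 5263 for rest-brain Tregs against Tconv cells, 6985 for Tconv cells by tissue, 11 for strain in hypothalamic Tregs, 39 for diet in hypothalamic Tregs, 9 for strain by diet in hypothalamic Tregs, 43 for strain by diet in rest-brain Tconv cells and 2885 for cell type by tissue, and members called were 3 (Irf5, Irf7 and Irf9) for Tconv cells by tissue. With the filterByExpr filter, genes called were 541 for hypothalamic Tregs against Tconv cells, 1134 for rest-brain Tregs against Tconv cells, 1312 for Tconv cells by tissue, 154 for Tregs by tissue, 66 for strain by diet in rest-brain Tconv cells and 542 for cell type by tissue, and members called were 0 for Tconv cells by tissue. With limma-voom and quality weights, genes called were 7312 for hypothalamic Tregs against Tconv cells, 4714 for Tregs by tissue, 13 for strain in hypothalamic Tregs, 123 for strain in rest-brain Tregs, 4 for diet in hypothalamic Tregs, 1 for diet in rest-brain Tconv cells, 16 for diet in rest-brain Tregs, 110 for strain by diet in hypothalamic Tregs, 243 for strain by diet in rest-brain Tconv cells, 1 for strain by diet in rest-brain Tregs and 5904 for cell type by tissue, and members called were 4 (Irf3, Irf7, Irf8 and Irf9) for hypothalamic Tregs against Tconv cells, 0 for rest-brain Tregs against Tconv cells, 3 (Irf4, Irf7 and Irf9) for Tconv cells by tissue, 1 (Irf3) for Tregs by tissue and 5 (Irf3, Irf5, Irf7, Irf8 and Irf9) for cell type by tissue.

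In Balb/c mice alone, genes called were 1431 for hypothalamic Tregs against Tconv cells, and members called were 5 (Irf1, Irf3, Irf5, Irf8 and Irf9) for rest-brain Tregs against Tconv cells and 6 (Irf1, Irf3, Irf5, Irf7, Irf8 and Irf9) for Tconv cells by tissue. In C57Bl/6J mice alone, genes called were 382 for hypothalamic Tregs against Tconv cells, 415 for rest-brain Tregs against Tconv cells, 1 for Tconv cells by tissue and 0 for Tregs by tissue, and members called were 0 for rest-brain Tregs against Tconv cells and 0 for Tconv cells by tissue. On the standard diet alone, genes called were 368 for rest-brain Tregs against Tconv cells, 233 for Tconv cells by tissue, 0 for Tregs by tissue, 47 for strain in hypothalamic Tconv cells, 0 for strain in hypothalamic Tregs, 809 for strain in rest-brain Tconv cells and 2 for strain in rest-brain Tregs, and members called were 0 for rest-brain Tregs against Tconv cells, 0 for Tconv cells by tissue and 1 (Irf7) for strain in rest-brain Tconv cells. On the HFHS diet alone, genes called were 875 for rest-brain Tregs against Tconv cells, 9 for Tconv cells by tissue, 67 for strain in hypothalamic Tconv cells and 1 for strain in hypothalamic Tregs, and members called were 2 (Irf5 and Irf9) for rest-brain Tregs against Tconv cells, 0 for Tconv cells by tissue and 3 (Irf1, Irf7 and Irf9) for strain in rest-brain Tconv cells. Without the 6 libraries that stood apart, genes called were 1916 for hypothalamic Tregs against Tconv cells, 1423 for Tregs by tissue, 2 for strain by diet in hypothalamic Tregs and 0 for strain by diet in rest-brain Tconv cells, and members called were 0 for Tconv cells by tissue. With transcript length as an offset, genes called were 3443 for rest-brain Tregs against Tconv cells and 677 for strain by tissue, and members called were 5 (Irf1, Irf2, Irf3, Irf5 and Irf8) for rest-brain Tregs against Tconv cells, 0 for Tconv cells by tissue, 3 (Irf2, Irf5 and Irf7) for strain in rest-brain Tconv cells and 1 (Irf7) for strain by tissue. With more than 20 normalized reads in both pilot libraries, genes called were 1509 for pilot Tconv diet, 976 for pilot Treg diet, 1046 for pilot CD4+ and 899 for pilot CD25hi, and members called were 1 for pilot Tconv diet, 1 for pilot CD4+ and 2 for pilot CD25hi.

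The pool label is the only sign that libraries came from the same mice, and residuals of same-label pairs did not correlate above 0.1 in any of 46 pairs, so libraries were treated as unpaired. With the pool of mice as a replicate block, genes called were 5528 for hypothalamic Tregs against Tconv cells, 116 for Tconv cells by tissue and 0 for Tregs by tissue, and members called were 1 (Irf4) for hypothalamic Tregs against Tconv cells, 0 for rest-brain Tregs against Tconv cells and 0 for Tconv cells by tissue. Irf5 then had 2.19 (edgeR adjusted p 0.275; 0.00053 to 0.56 over alternatives) for rest-brain Tregs against Tconv cells and 1.45 (edgeR adjusted p 0.141; 0.0065 to 1 over alternatives) for Tconv cells by tissue.

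Irf1 reversed its sign in diet comparisons that were not called. In hypothalamic Tregs it was -0.05 and became 0.0412 with limma-voom and 0.69 as a difference in the exact permutation test, and without 1 pool it became 0.06 (Balb/c standard-diet pool 37_41), 0.01 (Balb/c HFHS pool 16_20), 0.06 (C57Bl/6J HFHS pool 77_80), 0.33 (C57Bl/6J standard-diet pool 43_47), 0.02 (C57Bl/6J HFHS pool 72_76) and 0.01 (Balb/c HFHS pool 11_14). In rest-brain Tregs it was -0.35 and became 0.17 in C57Bl/6J mice alone and 0.65 in the exact permutation test. The cause was not tested for any of these changes, except that analyses of 1 strain or diet hold fewer libraries and filters change the number of genes tested.

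Leaving out each library in turn gave these lowest and highest values. Where this made the smallest group smaller, the count filter was looser as well, so the genes tested could change with the library. Genes called were 937 to 1540 for hypothalamic Tregs against Tconv cells, 1709 to 3102 for rest-brain Tregs against Tconv cells, 1897 to 3065 for Tconv cells by tissue, 469 to 1214 for Tregs by tissue, 177 to 260 for strain in hypothalamic Tconv cells, 1 to 3 for strain in hypothalamic Tregs, 2468 to 2930 for strain in rest-brain Tconv cells, 26 to 41 for strain in rest-brain Tregs, 0 for diet in hypothalamic Tconv cells, 0 to 10 for diet in hypothalamic Tregs, 0 for diet in rest-brain Tconv cells, 0 for diet in rest-brain Tregs, 0 to 1 for strain by diet in hypothalamic Tconv cells, 0 to 1 for strain by diet in hypothalamic Tregs, 0 to 230 for strain by diet in rest-brain Tconv cells, 0 to 30 for strain by diet in rest-brain Tregs, 1739 to 2117 for cell type by tissue and 1070 to 1619 for strain by tissue. Members called were 1 to 2 for rest-brain Tregs against Tconv cells, 0 to 3 for Tconv cells by tissue, 4 to 5 for strain in rest-brain Tconv cells and 3 to 4 for strain by tissue and 0 throughout for the others. Log2 fold changes were 2.42 to 2.95 for Irf5 in rest-brain Tregs against Tconv cells, 1.09 to 1.47 for Irf5 in Tconv cells by tissue, -0.81 to -0.58 for Irf1 in strain in rest-brain Tconv cells, -1.05 to -0.70 for Irf3 in strain in rest-brain Tconv cells, -2.52 to -2.03 for Irf5 in strain in rest-brain Tconv cells, -1.24 to -0.92 for Irf7 in strain in rest-brain Tconv cells, -1.20 to -0.93 for Irf9 in strain in rest-brain Tconv cells, 0.38 to 0.57 for Irf1 in diet in hypothalamic Tconv cells, -0.52 to 0.33 for Irf1 in diet in hypothalamic Tregs, -0.46 to -0.24 for Irf1 in diet in rest-brain Tconv cells, -0.62 to -0.10 for Irf1 in diet in rest-brain Tregs, 1.16 to 1.48 for Irf3 in strain by tissue, 1.08 to 1.32 for Irf7 in strain by tissue and 1.25 to 1.62 for Irf9 in strain by tissue. For cell type by tissue this was run for the 16 hypothalamic Treg libraries alone.

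Length offset, strain by tissue and the analysis without the 6 libraries were chosen after seeing the data. Irf2 in rest-brain Tconv cells had a log2 ratio of mean levels by strain of -0.54 in TPM, where CPM gave a ratio nearer 0. In hypothalamic Tregs 3 counts stood for 0.078 to 1.74 CPM. Irf4 could not be tested in the fits of hypothalamic Tregs alone, where it was at 0 in 12 of 16 pools, and whether depth was the reason was not tested.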
